A study of Mus musculus with 10 samples.

Results

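The major histocompatibility complex (MHC) class II genes and their transcriptional coactivator Ciita were followed in RNA-seq of CD34- HSCs from Reg1Δ/Δ and control mice. The group held 10 genes, the classical chains H2-Aa, H2-Ab1 and H2-Eb1, the invariant chain Cd74, Ciita, the peptide exchange chains H2-DMa, H2-DMb1 and H2-DMb2, and the inhibitor chains H2-Oa and H2-Ob. They were selected on their TPM (a relative abundance of transcripts that is scaled for their length and adds up to the same total in each library) in the 10 libraries described here, compared between genotypes within each library set. Their differences between genotypes are therefore given as a description, without a test. The 10 genes were among 33393 genes in the files and had 29 annotated transcripts, and all 10 were among the 12874 genes with at least 1 TPM in at least 5 libraries. Ciita reached 1 TPM in 2 of 5 control libraries and in all 5 libraries labelled Reg1Δ/Δ, so that it passed this filter through the group in which it was higher.

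MHC class II molecules are pairs of an α and a β chain that carry peptides from the endosome to the surface for recognition by CD4+ T cells. The invariant chain holds the peptide groove of newly made pairs, H2-DM exchanges its remnant for other peptides, and H2-O restrains H2-DM. Ciita does not bind DNA itself but is recruited to the X and Y boxes of class II promoters by the RFX, CREB and NF-Y factors. The genes are known best from B cells, dendritic cells and macrophages, and interferon-γ induces Ciita in many other cells.

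Libraries were made from bone marrow cells of C57BL/6 mice 8 weeks old, sorted as lineage-negative, Sca1+, cKit+, CD34- and Flt3-. Control mice were Reg1flox/flox, and Reg1Δ/Δ mice carried Vav1-iCre with Reg1flox/flox, so that the floxed gene (Zc3h12a, which encodes the RNase Regnase-1) is recombined in cells that use the Vav1 promoter, which covers the blood lineages. The floxed allele was shared by both groups, and Cre was carried by the Reg1Δ/Δ group alone. The names of the libraries gave 2 library sets, with 3 libraries per genotype in set 1 and 2 per genotype in set 2. The labels do not tie a library to an animal, so the SD and the tests measure the spread between libraries.

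Zc3h12a itself was at 1.83, 1.28 and 1.60 TPM in the controls of set 1 and at 3.54, 2.08 and 2.51 TPM in the libraries labelled Reg1Δ/Δ. In set 2 it was at 1.48 and 6.07 TPM in controls and at 10.3 and 8.52 TPM in the libraries labelled Reg1Δ/Δ. The deleted gene was thus higher under the Reg1Δ/Δ label in both sets (log2 fold change 0.83 ± 0.28 SE, limma, adjusted p = 0.0314), against the label. Directions are therefore given by label throughout, and whether RNA of the recombined allele was counted was not tested. Transcripts annotated as protein-coding held 46.2% to 49.1% of TPM in set 1 and 73.5% to 81.1% in set 2, so the members' levels were compared within a set, and ranges given over both sets for other genes include this difference. Genes of stem cells stood apart under the same label: Procr was at 19.8 to 37.3 TPM in controls and at 0.108 to 1.36 TPM in the libraries labelled Reg1Δ/Δ, and Hlf at 33.9 to 176 against 0.791 to 2.72 TPM. In all, 7 of 8 stem cell markers were lower at an adjusted p under 0.05, beside 37.9% of all tested genes, and Ly6a, which encodes Sca-1, was at 68.1 to 108 against 50.9 to 449 TPM. Procr, among these 7, reached 1 TPM in every control but in few libraries labelled Reg1Δ/Δ. It passed the filter through the controls, and nothing is read from its call.

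Among the members that were higher, the classical chains H2-Aa, H2-Ab1 and H2-Eb1 had the largest log2 fold changes of TPM + 1 (2.45, 2.35 and 3.48), whereas with a pseudocount of 0.1 Ciita, at 2.404, came before H2-Ab1, at 2.36. H2-Aa, the α chain of the I-A molecule, was at 34.9, 14.0 and 41.4 TPM in the controls of set 1 and at 272, 90.8 and 207 TPM in the libraries labelled Reg1Δ/Δ. The controls of set 2 had 53.7 and 45.4 TPM and the libraries labelled Reg1Δ/Δ 246 and 217 TPM. The groups did not overlap in either set, and the ratio of the means was 6.31 in set 1 (189.9 ± 91.7 against 30.1 ± 14.3 TPM, SD, n = 3) and 4.67 in set 2 (231 ± 20.01 against 49.6 ± 5.81 TPM, SD, n = 2).

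H2-Ab1, the β chain that pairs with H2-Aa, was at 73.2, 32.3 and 89.3 TPM in the controls of set 1 and at 612, 188 and 484 TPM in the libraries labelled Reg1Δ/Δ. Its values in set 2 were 57.9 and 66.9 TPM in controls and 246 and 218 TPM under the Reg1Δ/Δ label. Both sets were without overlap, with a ratio of the means of 6.59 in set 1 and 3.72 in set 2.

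H2-Eb1, the β chain of the I-E molecule, was at 12.8, 4.47 and 20.97 TPM in the controls of set 1 and at 199, 62.5 and 164 TPM in the libraries labelled Reg1Δ/Δ. In set 2 the controls had 25.6 and 14.0 TPM and the libraries labelled Reg1Δ/Δ 244 and 224 TPM. The ratio of the means, 11.1 in set 1 and 11.8 in set 2, was the largest of the 10 members in set 1 but lay below that of Ciita, 12.1, in set 2. The α chain of I-E is encoded by a pseudogene in C57BL/6 mice, and this gene, H2-Ea-ps, was listed at 0 in every control and at no more than 0.0788 TPM in the libraries labelled Reg1Δ/Δ.

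The proportions of the classical chains differed with the label. TPM of H2-Eb1 per TPM of H2-Aa was 0.308 to 0.507 in the 5 controls and 0.689 to 1.03 in the 5 libraries labelled Reg1Δ/Δ, without overlap. Under the Reg1Δ/Δ label this ratio also differed between the sets, at 0.689 to 0.790 in set 1 and 0.993 to 1.03 in set 2. H2-Ab1 per H2-Aa differed mainly with the library set, at 2.07 to 2.34 in the 6 libraries of set 1 and 1.003 to 1.47 in the 4 of set 2. Its groups overlapped in set 1 but not in set 2, where it was 1.08 and 1.47 in controls and 1.003 in both libraries labelled Reg1Δ/Δ.

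**Figure D1:**
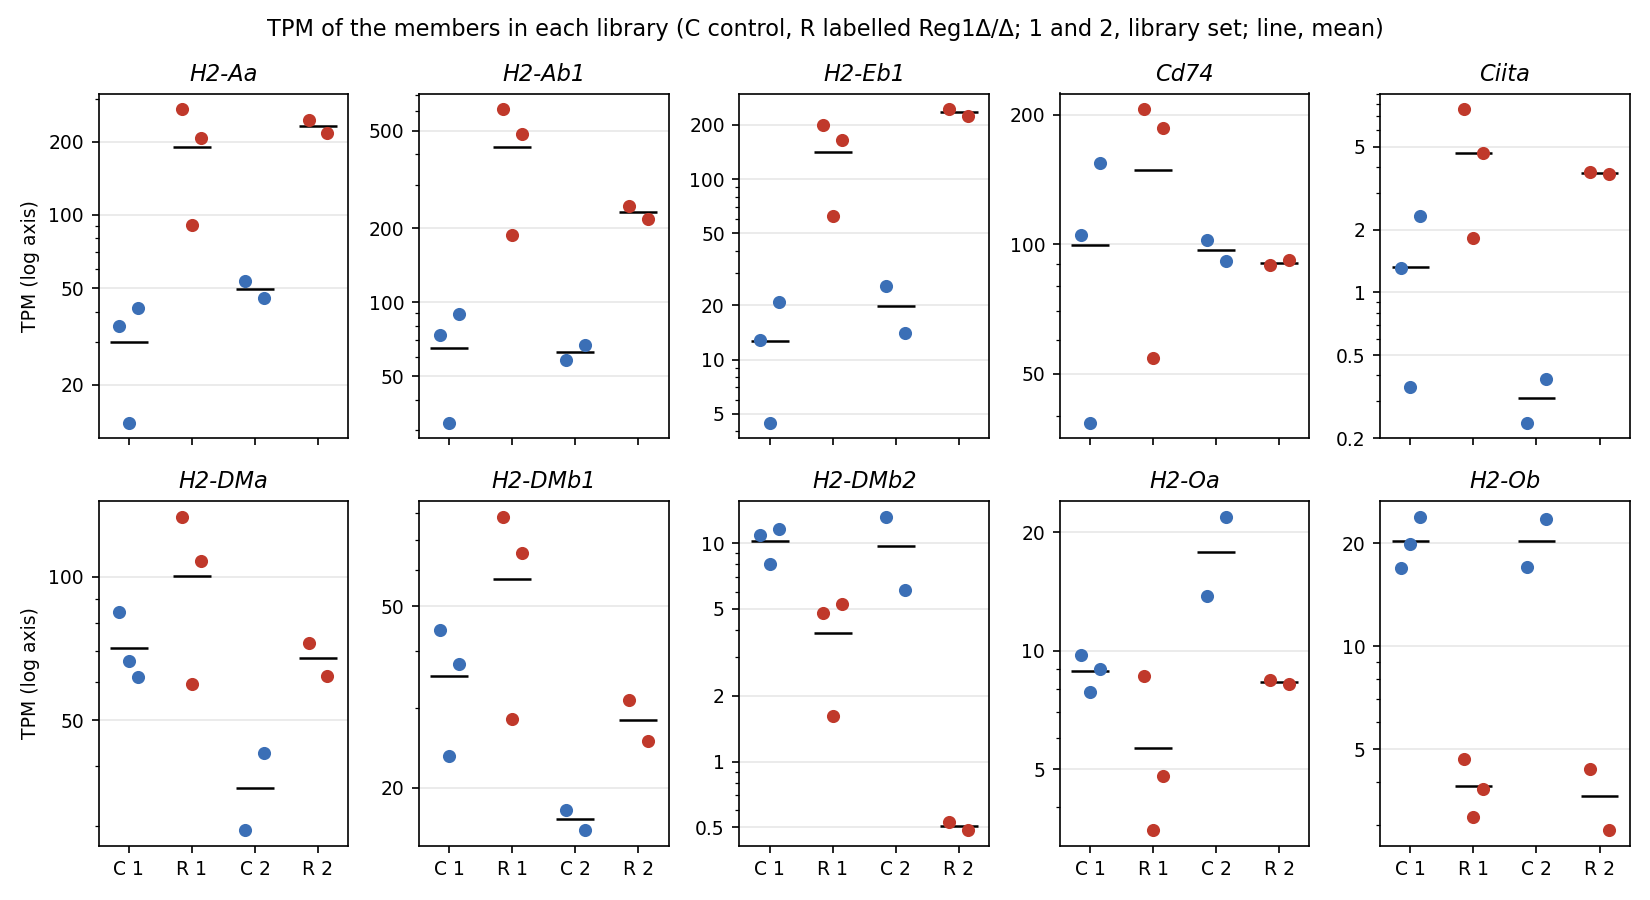
TPM of each member in each library on a log axis (C, control; R, labelled Reg1Δ/Δ; 1 and 2, library set; points, libraries; lines, group means, n = 3 per group in set 1 and 2 in set 2). H2-Aa, H2-Ab1 and H2-Eb1 sat above the controls and H2-DMb2 and H2-Ob below them in both sets, whereas the Cd74 values of the groups overlapped. Without the transcript counted under H2-DMb2 that GENCODE M21 places in H2-DMb1, the H2-DMb2 groups overlapped in set 1.

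Cd74, the invariant chain that accompanies every class II pair, did not follow the classical chains. In set 1 it was at 105, 38.5 and 155 TPM in controls and at 206, 54.4 and 186 TPM in the libraries labelled Reg1Δ/Δ. In set 2 it was at 102 and 91.4 TPM in controls and at 89.5 and 91.7 TPM under the Reg1Δ/Δ label. The groups overlapped in both sets, and the log2 fold change of TPM + 1 was 0.31 ± 0.45 (SE). As a result, TPM of Cd74 per summed TPM of H2-Aa, H2-Ab1 and H2-Eb1 was 0.724 to 1.02 in controls and 0.122 to 0.218 in the libraries labelled Reg1Δ/Δ. These ranges did not overlap.

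Cd74 was listed with 2 transcripts, of 1218 and 1410 bases, and the 192 bases by which they differ match in length the added exon of the longer form of the invariant chain, which contains a protease inhibitor domain. The longer transcript held 7.26% to 14.5% of Cd74 TPM in controls and 6.00% to 10.1% in the libraries labelled Reg1Δ/Δ, so that these ranges overlapped and the shorter transcript prevailed in every library.

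Ciita, the coactivator, had the lowest mean of the 10 members in controls of both sets. It was at 1.31, 0.350 and 2.32 TPM in the controls of set 1 and at 7.57, 1.83 and 4.65 TPM in the libraries labelled Reg1Δ/Δ. Here the groups overlapped, since the second library labelled Reg1Δ/Δ lay below the third control. In set 2 controls had 0.237 and 0.382 TPM and the libraries labelled Reg1Δ/Δ 3.78 and 3.72 TPM, without overlap and with a ratio of the means of 12.1, the largest in that set of the members that stood above the controls, against 3.53 in set 1. Because of the pseudocount of 1, the log2 fold change of Ciita (1.49 ± 0.33 SE) understates this difference, and with a pseudocount of 0.1 it was 2.404.

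Ciita is transcribed from alternative promoters with separate first exons, which are used to different degrees by dendritic cells, by B cells and by cells exposed to interferon-γ. Its 6 transcripts in the files started at 3 places on chromosome 16 (GRCm38, GENCODE M21), at 10480151, at 10488178 to 10488279 and at 10489746 to 10489783. Which promoter each start belongs to was not tested. Transcripts from the first start were at no more than 0.221 TPM in any library. Those from the middle start were at 0.198 to 0.350 TPM in the 5 controls and at 1.51, 0.344, 0.998, 1.85 and 3.62 TPM in the libraries labelled Reg1Δ/Δ. Transcripts from the last start were at 0.967, 0 and 1.97 TPM in the controls of set 1 and at 5.84, 1.31 and 3.63 TPM under the Reg1Δ/Δ label. In set 1 most Ciita TPM of the libraries labelled Reg1Δ/Δ thus came from the last start, but in set 2 that start was at 1.93 and 0 TPM, although both libraries had nearly the same Ciita total. These transcripts share most exons, and the split between them rests on the estimate of the authors' quantifier.

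The chains of H2-DM, which loads peptides, did not move together: H2-DMa and H2-DMb1 came to 0.62 and 0.65 and H2-DMb2 to -1.86 on the log2 scale. H2-DMa, the α chain, was at 84.3, 66.6 and 61.6 TPM in the controls of set 1 and at 134, 59.5 and 108 TPM in the libraries labelled Reg1Δ/Δ. Set 2 gave 29.4 and 42.6 TPM in controls and 72.7 and 62.1 TPM under the Reg1Δ/Δ label. The groups overlapped in set 1 and not in set 2, with ratios of the means of 1.42 and 1.87. A library set effect was visible within the gene, as protein-coding transcripts held 55.7% to 61.6% of its TPM in set 1 and 88.9% to 99.8% in set 2.

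H2-DMb1, a β chain of H2-DM, was at 44.4, 23.5 and 37.4 TPM in the controls of set 1 and at 78.7, 28.2 and 65.5 TPM in the libraries labelled Reg1Δ/Δ. Its values in set 2 were 17.9 and 16.2 TPM against 31.1 and 25.3 TPM. The ratio of the means was 1.64 in set 1 and 1.66 in set 2, again with an overlap in set 1 alone. As in H2-DMa, the sets differed within the gene, with 53.6% to 65.6% of TPM in protein-coding transcripts in set 1 and 97.4% to 100% in set 2. TPM of H2-DMa per TPM of H2-DMb1 was 1.64 to 2.83 in controls and 1.65 to 2.45 in the libraries labelled Reg1Δ/Δ, and these ranges overlapped.

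H2-DMb2, the other β chain of H2-DM, went the opposite way. It was at 10.9, 8.07 and 11.6 TPM in the controls of set 1 and at 4.81, 1.61 and 5.24 TPM in the libraries labelled Reg1Δ/Δ, and at 13.2 and 6.09 TPM against 0.529 and 0.486 TPM in set 2. The groups did not overlap in either set, and the controls had 2.62 times the mean TPM in set 1 and 19.0 times in set 2. The H2-DMb genes are close copies: of the 31-base words in coding transcripts of H2-DMb1, 37.6% also occurred in H2-DMb2, as did 13.7% of the 100-base words, close to the length of a read, so reads can be split wrongly between them. The files also count under H2-DMb2 a transcript that GENCODE M21 places in H2-DMb1, with 0 to 6.72 TPM in controls and 0 to 0.865 TPM in the libraries labelled Reg1Δ/Δ. Without it, H2-DMb2 was at 2.96 to 6.45 TPM in the controls of set 1 against 1.61 to 4.84 TPM, now overlapping, and its log2 fold change over both sets was -1.18 in place of -1.86.

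The H2-O chains, inhibitors of H2-DM, were lower under the Reg1Δ/Δ label. H2-Ob, the β chain, was at 16.9, 19.9 and 23.9 TPM in the controls of set 1 and at 4.70, 3.16 and 3.83 TPM in the libraries labelled Reg1Δ/Δ. In set 2 it was at 17.03 and 23.5 TPM in controls and at 4.38 and 2.91 TPM under the Reg1Δ/Δ label. With 5.19 and 5.57 times the mean TPM in controls, no overlap in either set and a residual SD of 0.25 on the log2 scale, the smallest of the 10 members, H2-Ob was the member with the most even difference.

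H2-Oa, the α chain, was at 9.73, 7.87 and 8.99 TPM in the controls of set 1 and at 8.65, 3.50 and 4.81 TPM in the libraries labelled Reg1Δ/Δ, with an overlap. Its set 2 values were 13.8 and 21.96 TPM against 8.42 and 8.24 TPM, without one. The controls had 1.57 and 2.15 times the mean TPM. TPM of H2-DMa per summed TPM of H2-Oa and H2-Ob was 1.87 to 3.16 in the controls of set 1 and 8.92 to 12.5 in the libraries labelled Reg1Δ/Δ, and 0.936 to 0.954 against 5.57 to 5.68 in set 2.

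**Figure D2:**
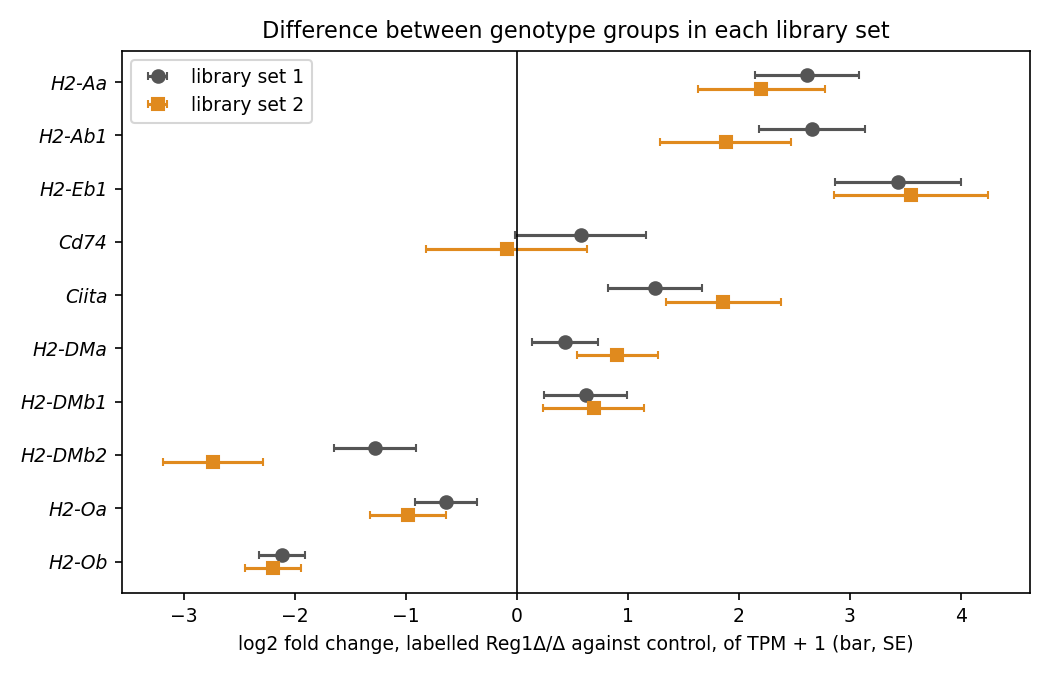
Log2 fold change of TPM + 1 between the libraries labelled Reg1Δ/Δ and controls for each member, fitted separately in library set 1 (circles) and set 2 (squares), with SE as bars. The classical chains, Ciita and the H2-DM chains H2-DMa and H2-DMb1 lie above 0 and H2-DMb2, H2-Oa and H2-Ob below it in both sets, while Cd74 is at 0.57 in set 1 and -0.09 in set 2.

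Without overlap in either set were 3 members that were higher and 2 that were lower, beside 12.7% and 31.4% of all tested genes. H2-DMb2, among these 2, overlapped in set 1 without the transcript that GENCODE M21 places in H2-DMb1. As the members were selected on this contrast, nothing is read from these counts. Of all tested genes, 15.0% were called higher and 37.9% lower at an adjusted p under 0.05. The median log2 fold change was 0.63 over the members and -0.25 over all tested genes. TPM is relative, and with quantile normalization or median-of-ratios scaling the median of all genes moved up by 0.40 and 0.36. The calls then split into 3861 higher and 2636 lower, or 4334 higher and 3245 lower, in place of 1933 and 4880. The directions of the 9 members other than Cd74 held under both scalings, but H2-Oa came to -0.16 with quantile normalization.

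The members were selected on their differences within each library set, so how these differed between the sets is described without a test as well. The log2 fold change of H2-DMb2 in set 2 minus that in set 1 was -1.46 ± 0.58 (SE). For Cd74 this difference between the sets was -0.67 ± 0.93 (SE) and for Ciita 0.62 ± 0.67 (SE), so that for both the SE exceeded the difference itself. These values rest on single libraries. That of H2-DMb2 came to -0.95 without the first and -1.96 without the second control of set 2, and that of Cd74 to -0.10 without the second control and -1.28 without the second library labelled Reg1Δ/Δ of set 1. That of Ciita came to 0.98 without the first and 0.19 without the second library labelled Reg1Δ/Δ of set 1.

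In set 1, the second replicate of each genotype held the least class II RNA. All 10 members were lowest in the second library labelled Reg1Δ/Δ, and 8 of 10 were lowest in the second control, the exceptions being H2-DMa and H2-Ob. Summed TPM of H2-Aa, H2-Ab1 and H2-Eb1 were 121, 50.7 and 152 in the controls and 1083, 341 and 855 in the libraries labelled Reg1Δ/Δ, so that the lowest library labelled Reg1Δ/Δ was still above the highest control. The same library labelled Reg1Δ/Δ had the smallest summed TPM of monocyte and macrophage markers of the 10 libraries, 14.6, of which Ly6c2 made up 11.02, while its Adgre1 level, 0.343 TPM, was the highest under that label. Its B-lineage markers summed to 17.02 TPM, against 2.37 to 6.17 in the other 4 libraries labelled Reg1Δ/Δ, and its Ly6a level, 50.9 TPM, was the lowest of the 10 libraries. The part of these in the members' levels was not tested. The members' levels are ordered differently under each label: Cd74 had the highest mean TPM in controls of both sets, with an overlap to H2-DMa in set 1 and none to H2-Ab1 in set 2. In the libraries labelled Reg1Δ/Δ, H2-Ab1 came first in set 1 and overlapped H2-Aa, and H2-Eb1, H2-Ab1 and H2-Aa overlapped each other at the top in set 2, at 234, 232 and 231 TPM.

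Apart from Cd74 and Ciita, the members lie side by side on chromosome 17 (GRCm38, GENCODE M21), from the start of H2-Oa at 34092340 to the end of H2-Eb1 at 34316674. Genes that stood above and below the controls lie close together there. From H2-Oa (log2 fold change -0.77) and Brd2, both lower, the order runs over H2-DMa (0.62), H2-DMb2 (-1.86) and H2-DMb1 (0.65) to the class I antigen processing genes Psmb9, Tap1 and Psmb8, which were all higher, and Tap2. H2-Ob (-2.15) comes next, followed by an unbroken run of the higher genes H2-Ab1, H2-Aa and H2-Eb1. H2-Ob ends at 34254414 and H2-Ab1 starts at 34257689, and their log2 fold changes were -2.15 ± 0.15 and 2.35 ± 0.37 (SE).

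**Figure D3:**
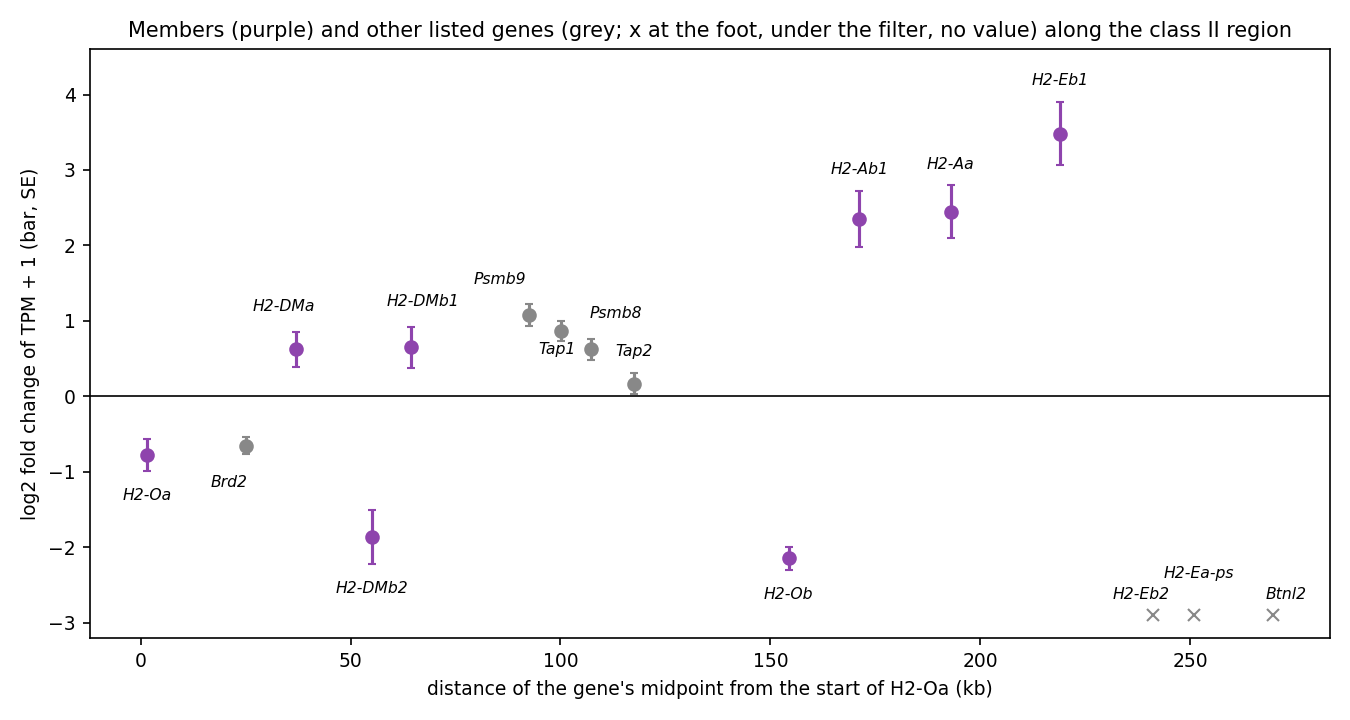
Log2 fold change of TPM + 1 over both library sets (bars, SE) of the members on chromosome 17 in purple and of other listed genes of the region in grey, by distance of the gene's midpoint from the start of H2-Oa in kb; crosses mark genes under the filter. H2-DMb2 and H2-Ob, at -1.86 and -2.15, stand next to H2-DMa, at 0.62, and H2-Ab1, at 2.35.

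Promoter windows were available from RefSeq (GRCm38.p6, 250 bases before to 50 bases after the start) for 7 of the 10 members, H2-Aa, H2-Eb1, H2-DMa, H2-DMb1, H2-DMb2, H2-Oa and H2-Ob. Both strands were searched for the letters TGATTGG, the core of the Y box, and AACNNATGA, taken here for the core of the X box, which were chosen after the windows had been read. The Y letters were in 6 of these members, in all but H2-DMa, and in 7.82% of 32851 windows of all genes. The X letters were in 4 of them and in 2.85% of all windows. X followed within 40 bases by Y on the same strand was found in 8 windows, 0.0244% of all, and 4 of these belonged to H2-Eb1, H2-DMb1, H2-DMb2 and H2-Ob. Stretches of 100 bases around the boxes are printed for these 6 members of which all hold the Y letters and 4 the X letters as well, so that these can be compared between genes above and below the controls, with the letters of the X and Y boxes in capitals.
H2-Aa (chr17:34287847-34287946, minus strand): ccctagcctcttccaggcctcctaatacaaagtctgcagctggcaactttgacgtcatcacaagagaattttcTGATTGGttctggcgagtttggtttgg
H2-Eb1 (chr17:34305733-34305832, plus strand): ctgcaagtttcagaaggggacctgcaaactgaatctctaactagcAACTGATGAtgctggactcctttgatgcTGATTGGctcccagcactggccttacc
H2-DMb1 (chr17:34153055-34153154, plus strand): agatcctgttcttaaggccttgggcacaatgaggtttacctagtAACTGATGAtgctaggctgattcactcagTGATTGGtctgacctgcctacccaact
H2-DMb2 (chr17:34145084-34145183, plus strand): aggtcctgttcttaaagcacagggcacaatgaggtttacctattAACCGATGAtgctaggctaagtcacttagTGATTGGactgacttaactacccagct
H2-Oa (chr17:34092261-34092360, plus strand): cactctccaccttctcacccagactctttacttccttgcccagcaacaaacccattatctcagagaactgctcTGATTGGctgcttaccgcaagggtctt
H2-Ob (chr17:34238773-34238872, plus strand): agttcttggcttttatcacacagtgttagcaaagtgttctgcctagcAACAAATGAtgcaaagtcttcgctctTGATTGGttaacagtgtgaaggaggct

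The X and Y letters were 19 bases apart in H2-Eb1, 20 in H2-DMb1 and H2-DMb2 and 17 in H2-Ob. Of the 4 members with both boxes in these letters, H2-Eb1 came to 3.48, H2-DMb1, whose groups overlapped in set 1, to 0.65, H2-DMb2 to -1.86 and H2-Ob to -2.15 on the log2 scale. Without the transcript that GENCODE M21 places in H2-DMb1, H2-DMb2 came to -1.18, and its groups overlapped in set 1 as well. A match of letters is a description of the window and says nothing about which factor was bound.

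Genes that act with the members were taken from 6 lists, of which 45 genes are reported here and 32 passed the filter. Of these, 4 were higher and 16 lower at an adjusted p under 0.05, that is 12.5% and 50%, beside 15.0% and 37.9% of all tested genes, and their median was -0.31 on the log2 scale. The balance turned with median-of-ratios scaling, under which 13 were higher and 10 lower: Rfxap, Nfyb, Nfyc, Ifngr1, Irf1, Ctsd, Sppl2a, March8 and Tap2 were then called higher, and the calls of Creb1, Nfya, Jak1, Jak2, Ctsb and Brd2 ended. The calls of Creb1, Nfya, Jak2, Ctsb and Brd2 also ended without the library set as covariate, as did that of Ifi30. In set 2 alone, those of Rfx5, Rfxank, Creb1, Nfya, Jak1, Jak2, Ctsb, Brd2, Tap1 and Psmb8 ended. Of the factors that assemble on class II promoters, 4 of 7 were lower (57.1%) and none higher (median -0.60). Rfx5, a DNA-binding subunit of RFX, was at 7.99 to 17.5 TPM in controls and 4.63 to 7.32 TPM in the libraries labelled Reg1Δ/Δ (log2 fold change -1.23 ± 0.22 SE, adjusted p = 0.00128). Rfxank, another RFX subunit, fell by 0.80 ± 0.12 (SE), Nfya, a subunit of NF-Y, by 0.68 ± 0.15 and Creb1 by 0.60 ± 0.13, but none of these 3 calls held with quantile normalization. Rfxap, Nfyb and Nfyc did not pass, at -0.07, 0.11 and -0.11.

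Of the 9 genes of the interferon-γ pathway to Ciita reported here, 8 passed the filter, of which 4 were lower (50%, beside 37.9% of all tested genes) and none of the others passed the test. Their median, -0.31, was close to that of all tested genes, -0.25. Ifng itself was at no more than 0.144 TPM in any library and was not tested. Irf1, which acts on the Ciita promoter, was at 57.1 to 79.0 against 62.5 to 127 TPM and did not pass (0.44 ± 0.18 SE, limma, adjusted p = 0.0592), but it was called higher under 5 of 22 alternatives, among them both scalings and the fit without the second library labelled Reg1Δ/Δ of set 1. Ifngr2, a chain of the interferon-γ receptor, fell by 1.24 ± 0.17 (SE), and Irf2, a relative of Irf1, fell by 1.46 ± 0.13. The kinases Jak1 and Jak2, which transmit the receptor's signal, fell by 0.61 ± 0.14 and 0.43 ± 0.10 (SE), and the call of Jak2 also ended with quantile normalization. Ifngr1, Usf1 and Socs1 did not pass, at 0.35, -0.20 and 0.02, but Ifngr1 was called higher without the third control of set 1, and Socs1 in set 1 alone and with quantile normalization (1.05).

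Of 5 transcription factors that tie Ciita to a lineage, 2 passed the filter and both were lower, too few to set against the 37.9% of all tested genes called lower. Spi1, which encodes PU.1, was at 74.4 to 164 TPM in controls and 11.2 to 32.8 TPM in the libraries labelled Reg1Δ/Δ (log2 fold change -2.54 ± 0.19 SE, adjusted p = 4.92e-06). Irf8, a factor of dendritic cells, monocytes and B cells, was at 23.3 to 48.2 against 3.81 to 15.0 TPM (-2.08 ± 0.28 SE, adjusted p = 0.000214). Irf4, Pax5 and Prdm1, the last a repressor of Ciita in plasma cells, were under the filter, at most at 7.04, 17.8 and 0.698 TPM in controls and at 0.0247, 0.0312 and 0.173 TPM in the libraries labelled Reg1Δ/Δ.

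Of the 10 genes of class II antigen processing, 8 passed the filter, of which 1 was higher and 3 were lower (12.5% and 37.5%, median -0.06), close to the 15.0% and 37.9% of all tested genes. Ctss, the protease that trims the invariant chain, was at 16.8 to 45.8 TPM in controls and 1.56 to 2.86 TPM in the libraries labelled Reg1Δ/Δ (log2 fold change -2.95 ± 0.23 SE, adjusted p = 7.04e-06). Lgmn, an endosomal endopeptidase, was at 1.62 to 39.96 against 0 to 1.32 TPM, and as it reached 1 TPM in 1 of 5 libraries labelled Reg1Δ/Δ it passed the filter through the controls. Nothing is read from its call, which is among these 3 and among the 16 lower genes given above. Ctsb fell by 0.50 ± 0.11 (SE). Ifi30, the thiol reductase of the endosome, was the gene that rose, by 1.02 ± 0.22 (SE), and it lay above the controls of its own set in every library. Ctsl, Ctsd, Sppl2a and March8 did not pass, at -0.05, -0.06, -0.01 and 0.62, although March8 was called higher under 6 of 22 alternatives, and March1 and Cd83 were under the filter.

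Of the 6 ligands that accompany class II on antigen-presenting cells, 2 passed the filter and both were called lower, but Cd86 reached 1 TPM in the controls alone, so that it passed the filter through the group in which it was higher and nothing is read from its call, which is among the 16 given above. Cd86 was at 1.67 to 5.44 TPM in controls and at no more than 0.461 TPM in the libraries labelled Reg1Δ/Δ, and Cd274, which encodes PD-L1, at 4.73 to 8.83 against 1.298 to 3.10 TPM. The call of Cd274 ended with quantile normalization. Cd80, Cd40, Icosl and Pdcd1lg2 were under the filter, with at most 2.44 TPM in any library.

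Among the 8 other genes of the class II region, 5 passed the filter, of which 3 rose and 1 fell, beside 15.0% and 37.9% of all tested genes. Psmb9 and Psmb8, subunits of the immunoproteasome, rose by 1.08 ± 0.14 and 0.62 ± 0.14 (SE), and Tap1, a chain of the peptide transporter of class I presentation, by 0.87 ± 0.13. Tap2 did not pass, at 0.17, and Brd2 fell by 0.66 ± 0.11 (SE). H2-Eb2, H2-Ea-ps and Btnl2 were under the filter.

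**Figure D4:**
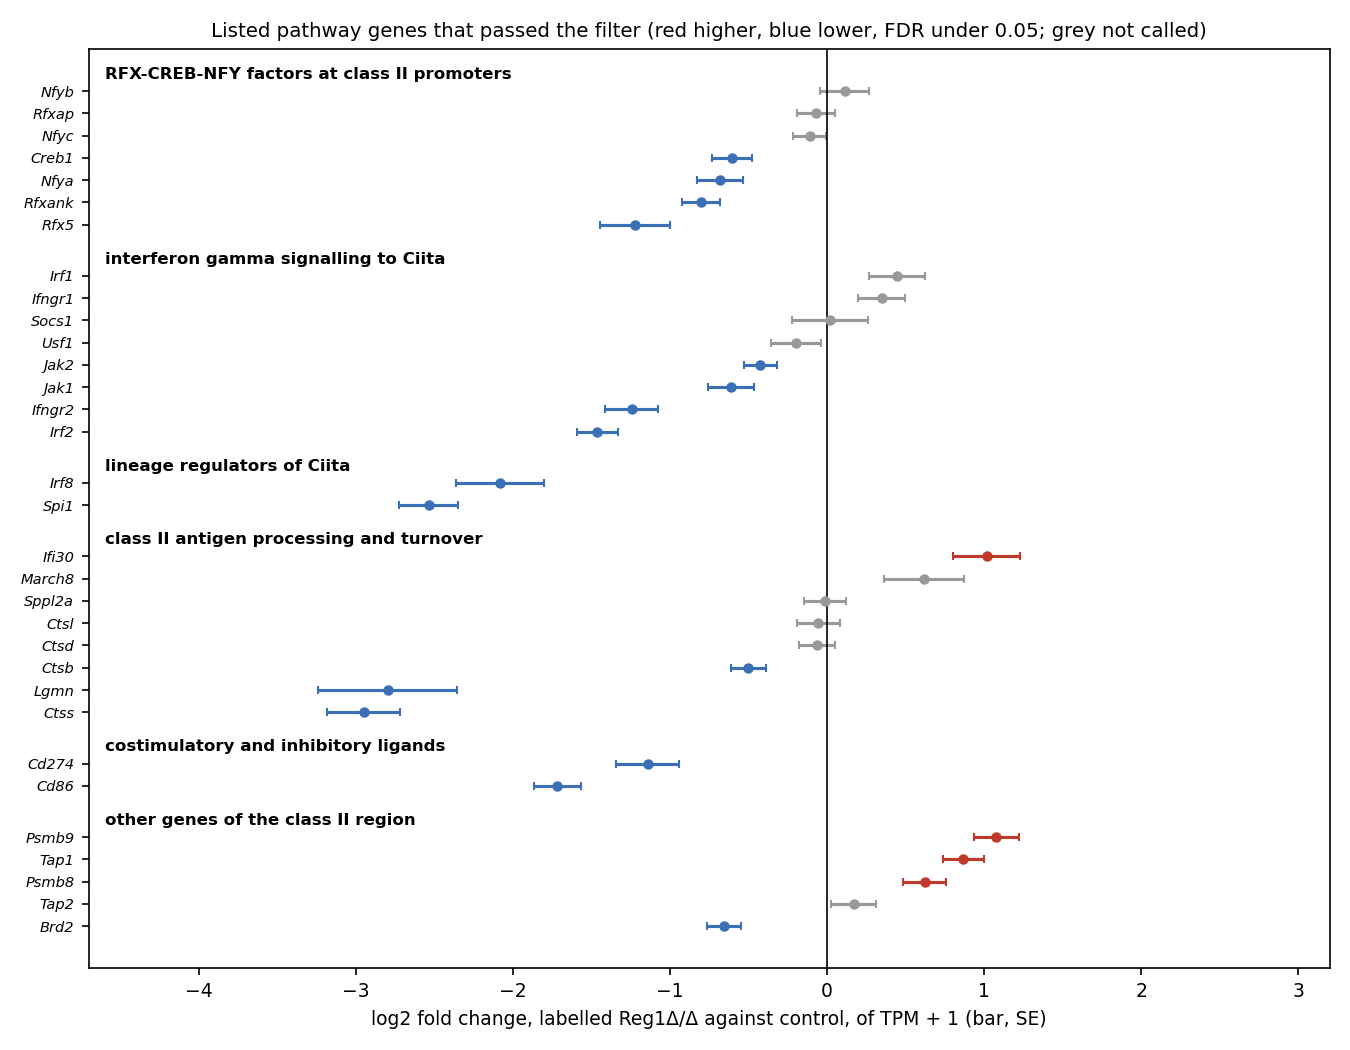
Log2 fold change of TPM + 1 over both library sets (bars, SE) of the 32 listed pathway genes that passed the filter, by list, with adjusted p under 0.05 in red (higher) or blue (lower) and the others in grey. Ctss, Lgmn, Spi1 and Irf8 lie below -2, and the genes in red, Ifi30, Psmb9, Tap1 and Psmb8, lie between 0.62 and 1.08.

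Markers of other cells moved with the label as well. In bulk RNA, fewer cells of a type and less RNA per cell cannot be told apart. Summed TPM of 7 B-lineage markers were 121 to 966 in controls and 2.37 to 17.02 in the libraries labelled Reg1Δ/Δ, with Cd79a at 15.7 to 195 against 0.0285 to 1.74 TPM, and all 6 that passed the filter were called lower, beside 37.9% of all tested genes, while Pax5 was under it. Nothing is read from this count, since most of the 6 passed the filter through the controls: in the libraries labelled Reg1Δ/Δ, Ms4a1 reached 1 TPM in none, Cd79a, Ebf1 and Igll1 in 1 of 5 and Vpreb1 in 2 of 5. Ms4a1 and Pax5 stayed under 1 TPM in every library labelled Reg1Δ/Δ. Since H2-Ob and H2-Oa are known from B cells, their values are set beside this sum. The first control of set 1 had the smallest sum of the controls, 121 TPM against 801 and 809 TPM in the other controls of set 1. Without Igll1 these sums were 84.2 against 471 and 486 TPM. All of the markers but Ms4a1 were lowest there among the controls of set 1, and Ms4a1, at 2.61 TPM, lay between 1.05 and 5.12 TPM. The H2-Ob level of that control was 16.9 TPM, below the 19.9 and 23.9 TPM of the other controls of set 1. The H2-Oa level of that control was 9.73 TPM, above the 7.87 and 8.99 TPM of the other controls of set 1. H2-DMb2 was at 10.9 TPM in that library, between the 8.07 and 11.6 TPM of the other controls of set 1. The part of B-lineage cells in these levels was not tested.

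Dendritic cell markers summed to 25.3 to 40.9 TPM in controls and 12.3 to 17.2 TPM in the libraries labelled Reg1Δ/Δ. There, 6 of the 8 stayed under 1 TPM in every library, among them Itgax, Xcr1, Clec9a, Batf3 and Siglech, and Cd209a was listed at 0. Zbtb46 made up most of the sum, at 9.99 to 15.2 TPM, and was higher than in controls, at 2.72 to 9.60 TPM. In 4 of 5 controls most of the sum was Flt3, which was at 11.001 to 33.9 TPM in controls against 1.16 to 2.21 TPM, and without Flt3 the sums overlapped, at 4.52 to 15.3 TPM in controls and 10.1 to 15.4 TPM in the libraries labelled Reg1Δ/Δ. Monocyte and macrophage markers summed to 136 to 289 TPM against 14.6 to 181 TPM, with 4 of the 5 that passed the filter lower and none higher, beside 37.9% and 15.0% of all tested genes. Csf1r, among these 4, reached 1 TPM in every control but in few libraries labelled Reg1Δ/Δ. It passed the filter through the controls, and nothing is read from its call. Most of the summed TPM was Ly6c2, and without it the sums were 11.2 to 63.9 against 2.81 to 8.04 TPM. T-cell markers summed to 28.2 to 51.5 against 2.07 to 4.42 TPM, and without Lck, the only one of them that passed the filter, to 2.27 to 6.20 against 0.348 to 1.58 TPM. The part of each of these cell types in the members' levels was not tested.

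**Figure D5:**
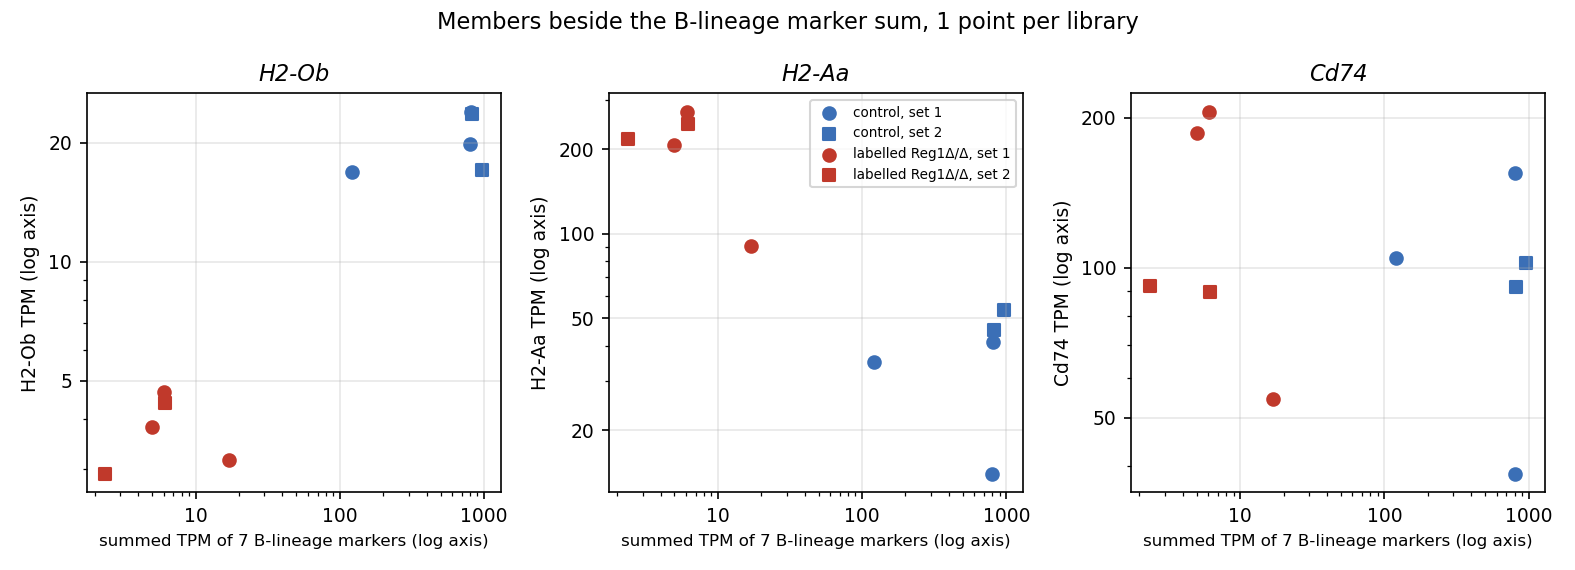
TPM of H2-Ob, H2-Aa and Cd74 (log axes) against summed TPM of 7 B-lineage markers (log axis), with 1 point per library, controls in blue and libraries labelled Reg1Δ/Δ in red, circles for set 1 and squares for set 2. The control with a sum of 121 has an H2-Ob level of 16.9 TPM, against 19.9 and 23.9 TPM in the other controls of set 1. H2-Aa is above the controls where the sum is 2.37 to 17.02.

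By likeness to the summed TPM of H2-Aa, H2-Ab1, H2-Eb1 and Cd74 over the 10 libraries (Pearson r of log2(TPM + 1), centred within each library set), the 5 genes that came first outside the group were Lsm4, Hax1, Nmi, Gfi1b and Nubp1, with r of 0.985, 0.981, 0.979, 0.978 and 0.972. Lsm4 belongs to RNA-binding complexes of splicing and decay, Nmi is an interferon-induced protein, and Gfi1b is a repressor of erythroid and megakaryocytic cells. Gfi1b was at 375 to 776 TPM in the controls of set 1 and 921 to 1419 TPM in the libraries labelled Reg1Δ/Δ, and at 150 to 176 against 287 to 289 TPM in set 2. Of the members outside that sum, Ciita had an r of 0.960, H2-DMb1 0.893 and H2-DMa 0.772, and H2-Oa, H2-DMb2 and H2-Ob had -0.48, -0.58 and -0.81. The libraries share genotype groups and sets, so these values describe a shared pattern in these libraries.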

How the data were processed

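Paired reads were aligned by the authors to GRCm38 with STAR, and TPM was estimated with Salmon 0.9.1 and GENCODE M17. Per the file headers and values, the deposited values are log2(TPM + 1), a log2 scale, for each of 95912 transcripts and 10 libraries. The labels name a SMART-Seq v4 kit and the study's methods an earlier version. One header in set 2 repeats the name of the other Reg1Δ/Δ library, but the values differ, and the file was used under its label. The log was undone, 1 was subtracted, and the TPM of the transcripts of a gene were added. Since such values hold no read numbers, the depth behind each library is unknown and counting intervals are not given.

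Genes with at least 1 TPM in at least 5 libraries were tested on log2(TPM + 1) with limma 3.58.1 in R 4.3.3 (lmFit, eBayes), with a term for the library set. Benjamini-Hochberg adjustment was made over 12874 genes, at a threshold of 0.05. The difference of the effect between sets was tested as an interaction over all genes, of which 0.443% passed, and is described without a test for the members. A fold change on the log2(TPM + 1) scale understates the change of low genes. The scripts were tested on simulated data. Tables and plots were made with Python 3.11.15.

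Some listed genes are not reported here and are left out of the lists, their counts and sums. The members and the gene lists were chosen with earlier results of these data known. Named were the 10 members, Zc3h12a, every listed gene that passed the test or was under the filter, markers by list, and the 5 genes most like the summed classical chains and Cd74; the listed genes that did not pass and the letters searched in promoters were added after their values were seen. Positions are those of GENCODE M21 and promoter sequences those of RefSeq, both on GRCm38. Of the transcripts, 99.8% were found in GENCODE M21. Ciita, Cd74 and H2-Ab1 promoter sequences were not used here. Replicate numbers come from the library names. Alternatives were another pseudocount, other filters, no covariate, the replicate number as a block, other scalings, protein-coding transcripts alone, each set alone, a mean-variance trend, each library left out, and, after seeing the data, a transcript moved from H2-DMb2 to H2-DMb1.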

Additional observations from a re-analysis of the deposited data

Results flagged for a closer look

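Socs1, a feedback inhibitor that lowers the response to interferon-γ, was the 1 gene among the members and the listed pathway genes that passed the filter for which every library labelled Reg1Δ/Δ lay above the controls of one library set and below those of the other. The fitted differences of Cd74, Nfyb, Ctsl and Sppl2a also had opposite signs in the sets, but their groups overlapped in at least 1 set. It was at 2.33, 1.61 and 2.05 TPM in the controls of set 1 and at 2.87, 3.31 and 3.54 TPM in the libraries labelled Reg1Δ/Δ, above every control. In set 2 it was at 3.83 and 5.96 TPM in controls and at 3.24 and 1.97 TPM under the Reg1Δ/Δ label, below both. The log2 fold change was 0.50 ± 0.20 (SE) in set 1 and -0.71 ± 0.24 in set 2, a difference of -1.21 ± 0.31 (SE) that did not pass the interaction test in limma (adjusted p = 0.176).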

How the results depend on the processing

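The direction of each of the 9 members other than Cd74 was the same under every alternative that gave a value. H2-Aa ranged from 2.17 to 2.86, H2-Ab1 from 1.88 to 2.76, H2-Eb1 from 3.19 to 3.88, Ciita from 1.24 to 2.404, H2-DMa from 0.43 to 1.03, H2-DMb1 from 0.46 to 1.05, H2-DMb2 from -2.74 to -1.01, H2-Oa from -0.98 to -0.16 and H2-Ob from -2.39 to -1.56 on the log2 scale. Cd74 ranged from -0.09 to 0.72 and came to -0.04 without the second control of set 1. Ciita and H2-DMb2 gave no value where 1 TPM was required in every library. The median of the members stayed between 0.51 and 1.04.

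Over all tested genes, no covariate gave 716 higher and 3052 lower genes, set 2 alone 525 and 2793, quantile normalization 3861 and 2636, and median-of-ratios scaling 4334 and 3245. The count of listed pathway genes that were higher became 7 with quantile normalization, 13 with median-of-ratios scaling, where 10 were lower, and 2 in set 2 alone. Of 695 values of listed genes under the alternatives, 27 lost and 21 gained their call, and none reversed. Genes whose difference differed between the sets numbered 57, against 479 with no filter, 10 with 1 TPM required in every library, 17 with protein-coding transcripts alone, and 20 to 90 with a library left out, the highest without the second control of set 2. The cause was not tested.

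Whether replicate numbers pair the samples was not settled. In set 1, same-numbered libraries deviated together with r of 0.033, 0.175 and 0.068, and differently numbered ones with r of -0.116 to 0.061. In set 2, with 2 libraries per group, all r have the same size by construction, at -0.054 for same-numbered libraries. With a replicate block, 1703 genes were higher and 4545 lower, and 7 differed between the sets.

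TPM without read numbers leaves the precision of low genes such as Ciita and H2-DMb2 unknown, and the groups held 2 or 3 libraries each.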
